A study of Mus musculus with 6 samples.

Results

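Imprinted genes are expressed mainly from the chromosome inherited from a single parent, because DNA methylation marks set in the egg or sperm silence the other copy. Many paternally expressed imprinted genes favour growth and many maternally expressed ones restrain it, and a network of them is active in perinatal growth and is turned down afterwards. In fat, Mest is known as a transcript that is high while adipocytes expand, and necdin and Grb10 are known as regulators of adipogenesis and of insulin signalling.

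The imprinted growth genes described here are 10 of the 13490 genes in a table of inguinal white adipose tissue, chosen by symbol: the paternally expressed Mest, Peg3, Plagl1, Ndn, Nnat, Sgce and Impact, and the maternally expressed Grb10, Igf2r and Cdkn1c. All 10 symbols were present. The set was drawn up with the means of the same comparison known, so the values of the members below are a description, without a test. Parental expression was taken from general knowledge of the mouse, and reads were not separated by allele here. Whether a gene is expressed from a single parental copy in this fat was thus not examined, for members and other imprinted genes alike.

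The tissue came from 6 males of the C57BL/6J strain, all wild type and 15 weeks old. For 9 weeks, 3 mice drank water with 300 ppb sodium arsenite (replicates 9, 10 and FC16) and 3 drank distilled water (replicates 4, 6 and 8). The title of the series names impaired adaptive thermogenesis under chronic arsenic. The deposited values are authors' means per group on a count-like scale, a log2 ratio of arsenite over water, and a posterior probability of equal expression (PPEE), so no value per mouse, SD or overlap between mice can be given. Depth is known only from the labels, which put it at 20000000 mapped reads for each sample. Measured here means listed by the authors. The lowest mean over both groups among listed genes was 5.11, so a gene that is not listed can be low and not absent. All 12 adipocyte markers were measured, with summed means of 407806 under arsenite and 402540 under water, and 0 of 8 mammary epithelial markers were measured. Of 12 skeletal muscle markers 9 were measured, with summed means of 152488 under arsenite and 202049 under water, so the RNA of both groups held muscle transcripts beside those of fat.

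The promoters of Mest, Peg3, Nnat and Plagl1 lie at regions that are methylated on the maternal chromosome. That trait was not compared over the other members, so it is not given as particular to these 4. They were picked as the members with the 4 highest ratios, and a link between the trait and the ratios was not tested. The start-site windows of these 4 genes, from RefSeq on GRCm38.p6, are shown 5′ to 3′. Each CpG dinucleotide, the site of DNA methylation, is in capitals. The window of the maternally expressed Igf2r is given beside them, and whether it is methylated on either copy was not examined. Each window runs from 250 bases before to 50 bases after the annotated start.
Mest, chr6:30737800-30738099, + strand: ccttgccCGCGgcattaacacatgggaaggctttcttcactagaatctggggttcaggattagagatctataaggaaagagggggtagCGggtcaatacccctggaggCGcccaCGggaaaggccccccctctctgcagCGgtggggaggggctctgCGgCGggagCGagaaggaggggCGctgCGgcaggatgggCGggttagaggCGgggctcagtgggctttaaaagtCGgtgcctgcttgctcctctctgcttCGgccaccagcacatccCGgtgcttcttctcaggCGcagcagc
Peg3, chr7:6730370-6730669, - strand: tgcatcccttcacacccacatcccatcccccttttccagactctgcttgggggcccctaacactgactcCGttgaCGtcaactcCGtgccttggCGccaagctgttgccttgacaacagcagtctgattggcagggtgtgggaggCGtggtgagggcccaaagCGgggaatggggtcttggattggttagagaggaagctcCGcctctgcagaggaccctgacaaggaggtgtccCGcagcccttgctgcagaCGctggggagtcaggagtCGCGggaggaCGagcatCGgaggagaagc
Nnat, chr2:157559828-157560127, + strand: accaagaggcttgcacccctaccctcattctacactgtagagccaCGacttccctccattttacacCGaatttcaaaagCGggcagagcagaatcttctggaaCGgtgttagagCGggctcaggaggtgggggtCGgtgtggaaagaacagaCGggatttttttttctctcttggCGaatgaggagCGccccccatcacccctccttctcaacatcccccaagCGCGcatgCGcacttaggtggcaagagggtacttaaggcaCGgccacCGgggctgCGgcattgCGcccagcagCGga
Plagl1, chr10:13090582-13090881, + strand: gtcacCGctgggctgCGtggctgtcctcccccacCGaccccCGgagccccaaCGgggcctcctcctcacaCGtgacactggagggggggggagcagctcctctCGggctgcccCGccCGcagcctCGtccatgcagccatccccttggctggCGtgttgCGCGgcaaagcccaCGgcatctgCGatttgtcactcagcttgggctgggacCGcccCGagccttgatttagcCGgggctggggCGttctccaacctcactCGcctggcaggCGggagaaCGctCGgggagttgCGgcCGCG
Igf2r, chr17:12769657-12769956, - strand: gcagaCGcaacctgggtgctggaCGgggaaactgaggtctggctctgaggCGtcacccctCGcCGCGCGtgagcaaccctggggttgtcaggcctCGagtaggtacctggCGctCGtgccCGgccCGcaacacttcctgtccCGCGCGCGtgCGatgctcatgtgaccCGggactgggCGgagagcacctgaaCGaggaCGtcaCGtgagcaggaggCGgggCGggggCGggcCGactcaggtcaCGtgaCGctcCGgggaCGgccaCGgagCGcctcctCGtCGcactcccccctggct
The Mest window holds 17 CpG, that of Peg3 13, that of Nnat 17 and that of Plagl1 26, against 34 for Igf2r and a median of 20 over 13576 windows of 10652 genes in the table. The windows of Grb10, maternally expressed like Igf2r, hold 9 and 45 CpG, so CpG count did not separate the paternal from the maternal windows. Of the 4 paternal windows shown, 3 lie below the median in CpG count and that of Plagl1 above it. The window of a start annotated further upstream in Mest (30733256 to 30733555) has 8 CpG. RefSeq windows were found for 7 of the 10 members, 10 windows in all. The hexamer TGCCGC, which the imprint-keeping zinc-finger protein ZFP57 binds when methylated, was searched on both strands. It occurs in the windows of 4 of the 7 members (Mest, Nnat, Plagl1 and Grb10), against 21.6% of all genes with a window. The palindrome GGGGCCCC, an element bound by PLAGL1, occurs in 1 of the 10 windows, that of Peg3, and in 1.53% of all windows. Of the 10 windows, 3 belong to Mest, and 2 of those nearly coincide. These matches describe the letters of the windows, and neither methylation nor binding was measured.

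Mest, Peg3 and Nnat had the largest differences. Mest, which encodes a putative hydrolase of the endoplasmic reticulum membrane (chromosome 6, 30733506 to 30748466, GRCm38), had an authors' mean of 2304 under arsenite, against 539 under water, a 4.28-fold ratio of means. The authors' deposited table lists it at a log2 ratio of 2.09, which ranks 13 from the top of all genes. Peg3, a zinc-finger protein gene (chromosome 7, 6703892 to 6730462), had 1057 under arsenite and 289 under water, 3.66-fold. The authors' deposited table lists it at 1.87, which ranks 21 from the top.

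Nnat, which encodes neuronatin, a small proteolipid of the endoplasmic reticulum, had 10286 under arsenite and 4081 under water, 2.52-fold (chromosome 2, 157560078 to 157562525). It was by far the most abundant member, with 63.8% of the members' summed means under arsenite and 59.9% under water. Plagl1, a zinc-finger transcription factor described as a hub of the imprinted gene network (chromosome 10, 13090832 to 13131694), had 247 under arsenite and 129 under water, 1.92-fold. The authors' deposited table lists log2 ratios of 1.33 for Nnat (rank 45) and 0.94 for Plagl1 (rank 162).

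The other paternally expressed members differed less. Ndn, which encodes necdin, a restrainer of adipogenesis in mouse precursors, had 177 under arsenite and 144 under water. Sgce, epsilon-sarcoglycan, had 436 under arsenite and 363 under water. Impact, whose product keeps the kinase GCN2 from being activated, had 553 under arsenite and 491 under water. The ratios of means of Ndn, Sgce and Impact were 1.23, 1.20 and 1.13. Ndn lies on chromosome 7 at 62348277 to 62349928, Sgce on chromosome 6 at 4674350 to 4747204, and Impact on chromosome 18 at 12954690 to 12992950.

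The maternally expressed members lay between these groups. Cdkn1c, an inhibitor of cyclin-dependent kinases that is mutated in a human overgrowth syndrome, had 269.9 under arsenite and 173 under water, 1.56-fold. Grb10, an adaptor that dampens insulin and IGF1 receptor signalling, had 355 under arsenite and 254 under water, 1.40-fold. Igf2r, the receptor that clears IGF2 by taking it to lysosomes, had 443 under arsenite and 349 under water, 1.27-fold. The spans of Cdkn1c (chromosome 7, 143458339 to 143461059), Grb10 (chromosome 11, 11930499 to 12037428) and Igf2r (chromosome 17, 12682406 to 12769706) hold exons and introns together, as do all spans given here.

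**Figure D1:**
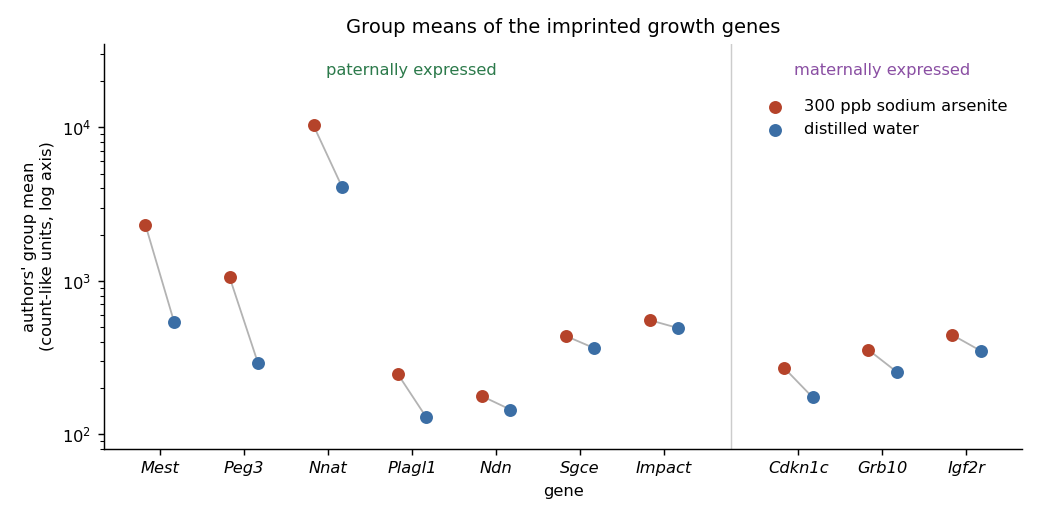
Authors' group means of the 10 members on a log axis, with the 300 ppb sodium arsenite mean on the left of each pair and the distilled water mean on the right. Each point is a mean of 3 mice without an error, and the arsenite point is the higher one in all 10 pairs.

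With a bound of 0.05 on the PPEE of the authors' deposited table, 0 of the 10 members were called, and of all genes 0.734% were called and 0.385% were called higher. With so small a share over all genes, nothing is read from 0 called, for the members or for the gene lists below. Among members, the authors' deposited table gives the lowest PPEE to Nnat, at 0.109, and to Cdkn1c, at 0.262. Peg3 had 0.795, Plagl1 0.903 and Mest, with the largest ratio of the set, 0.968 in the authors' deposited table. The other members, Ndn, Sgce, Impact, Grb10 and Igf2r, had values from 0.958 to 0.997 in the authors' deposited table. A PPEE above 0.9 was held by 95.0% of all genes. The order by PPEE was thus not the order by ratio, and the spread between mice behind either could not be examined.

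All 10 members had log2 ratios above 0 in the authors' deposited table, against 45.5% of all genes, and 3 of them had a log2 ratio of at least 1, against 0.941% of all genes. Because the members were chosen on this comparison, nothing is read from these counts. The median log2 ratio in the authors' deposited table was 0.94 over the 7 paternally expressed members, with a range of 0.17 to 2.09. It was 0.48 over the 3 maternally expressed members, with a range of 0.35 to 0.64, and -0.03 over all genes. The difference of the medians was 0.46. The paternally expressed members did not form a uniform block: 4 of the 7 (Mest, Peg3, Nnat and Plagl1) lay above every maternally expressed member, and 3 (Ndn, Sgce and Impact) lay below every one. With the trend of ratio on gene length removed, Ndn and Sgce lay above Igf2r, at 0.37 and 0.33 against 0.29, and Impact stayed below. In bulk tissue, fewer cells of a type and less RNA per cell cannot be told apart, and this holds for every difference given here.

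Set among genes of like abundance, Mest, Peg3 and Nnat were at the edge of the table. Of 1731 other genes whose mean over both groups was within a factor of 2 of that of Mest, 0 had a higher log2 ratio. The same held for Peg3 among 3455 genes and for Nnat among 237. For Plagl1, 33 of 4913 such genes had a higher ratio, and for Cdkn1c 112 of 4988. Impact sat well inside the spread, with 744 of 4004 above it. Since the members were chosen on this comparison, these places are a description and no test.

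**Figure D2:**
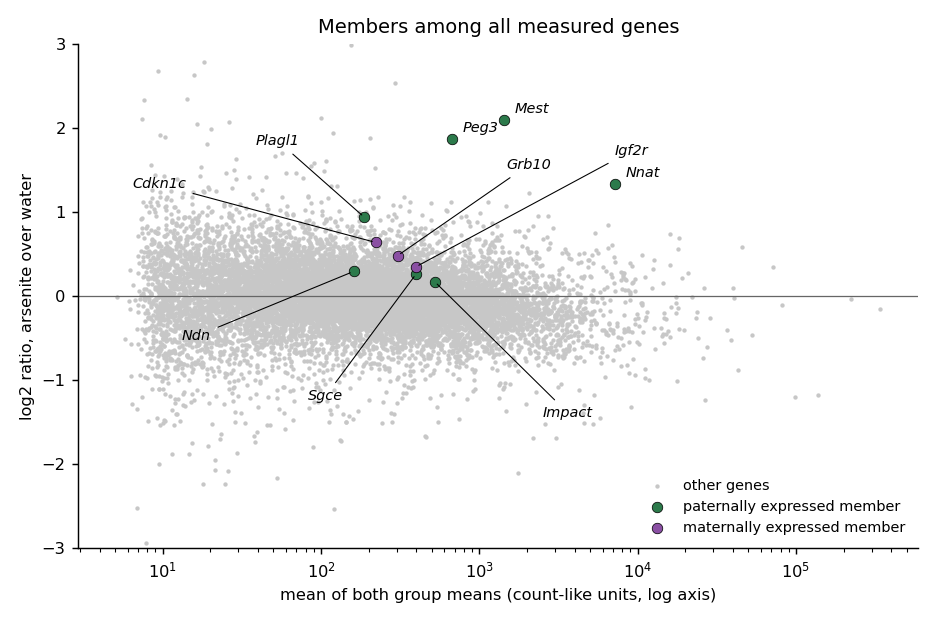
Log2 ratio of arsenite over water against the mean of both group means (log axis) for all genes with ratios between -3 and 3, which leaves out 4. No gene of like abundance lies above Mest, Peg3 or Nnat, whereas Impact, Sgce and Ndn lie within the spread. The members were chosen on this comparison.

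The genes most like Mest in ratio, among named genes within a factor of 2 of its mean level, were still far from it. They were Emp1, an epithelial membrane protein gene, Aqp1, a water channel gene, Angptl4, an inhibitor of lipoprotein lipase, and Cd300lg, an endothelial receptor gene. The authors' deposited table lists them at log2 ratios of 1.22, 1.11, 1.08 and 0.99, which left gaps of 0.87 to 1.11 to Mest. Likeness here rests on 2 group means alone. Aqp1 was the called gene among these 4, with a PPEE that the authors' deposited table gives as 0.000768.

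Per kilobase of the deposited gene length, the members spanned a wide range of levels. Nnat was highest, with 8572 under arsenite and 3401 under water per kilobase, and Mest came next, with 934 under arsenite and 218 under water. Sgce stood close to Mest under water, at 210 per kilobase, but not under arsenite, at 253. Peg3 ranked 5th of the 10 under arsenite (160 per kilobase) and 8th under water (43.6 per kilobase), the largest shift in rank. Plagl1 was the lowest member in both groups, with 46.8 under arsenite and 24.4 under water per kilobase. Igf2r was 9th in both, at 49.5 under arsenite and 39.0 under water per kilobase. Without a spread between mice, which neighbours in this order differ beyond error cannot be said.

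Imprinted genes lie in clusters, and the genes beside the leading members ranged from ratios near that of the member to ratios near 1. Imprinted genes were joined into a cluster where gaps were at most 1 Mb, a grouping made after the values were seen. In the Mest cluster, Klf14, a maternally expressed transcription factor gene known for acting on other genes of human fat, had 42.5 under arsenite and 9.66 under water, 4.40-fold. Copg2, a coat protein gene that overlaps the end of Mest on the other strand, had 385 under arsenite and 309.9 under water, 1.24-fold. The overlap is 913 bases, and the use of strand in counting is not given in the sources used here, so reads there cannot be told apart.

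Beside Peg3, the maternally expressed zinc-finger gene Zim1 had 29.97 under arsenite and 8.14 under water, 3.68-fold. Peg3as, the antisense transcript of Peg3, had 189 under arsenite and 49.1 under water, 3.86-fold, but overlaps Peg3 by 865 bases. Klf14, Zim1 and Peg3as thus had ratios near those of the member beside them, at low levels for Klf14 and Zim1. None was called: their PPEE values in the authors' deposited table were 0.590, 0.767 and 0.590.

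The Nnat gene lies within an intron of Blcap, on the other strand. Blcap had 925 under arsenite and 690 under water, 1.34-fold, against the 2.52-fold of Nnat. The cluster of Sgce had 5 of 5 measured genes above 0, with Peg10, a retrotransposon-derived gene 0.102 kb from Sgce, at 47.3 under arsenite and 26.0 under water. For Asb4 and Tfpi2 of that cluster the authors' deposited table lists log2 ratios of 0.74 and 0.96, both above the 0.26 of Sgce.

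The large cluster of distal chromosome 7 was divided. Of its 12 measured genes, 7 lay below 0 and 5, Cdkn1c among them, above. Its growth-promoting ligand gene Igf2 had 42.7 under arsenite and 74.9 under water, and H19, the maternally expressed non-coding RNA beside it, had 196 under arsenite and 457 under water. Slc22a18, next to Cdkn1c, had 24.3 under arsenite and 13.2 under water. Of the 50-base stretches of Igf2, 61.2% also occur in another annotated gene, so its value is uncertain. No 50-base stretch of any of the 10 members occurs, on the same strand, in the annotated transcripts of another gene (0%). Genes on the opposite strand overlap members too: Gm32061 covers all 1652 bases of Ndn, Gm44732 covers 892 bases of Cdkn1c, Gm44296 covers 896 bases of Mest and Airn covers 28396 bases of the span of Igf2r. Without strand, reads from these overlaps cannot be told apart either.

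**Figure D3:**
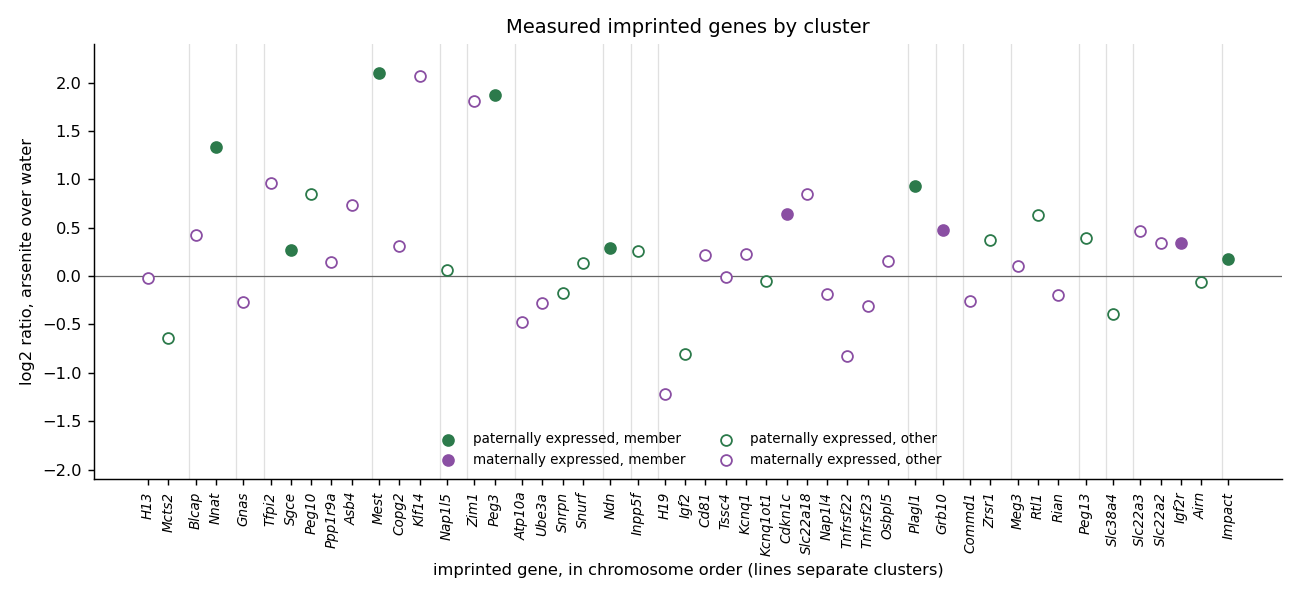
Log2 ratio of arsenite over water for the 48 measured imprinted genes in chromosome order, with vertical lines between clusters. Filled points are the 10 members and open points the other 38, in green where paternally and in purple where maternally expressed; the Mest, Peg3 and Sgce clusters lie wholly above 0 and the cluster of Igf2 and H19 lies on both sides.

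Imprinted genes outside the set were mixed. Of 38 other measured imprinted genes, 21 had log2 ratios above 0 and 17 below, with a median of 0.12 and 0 called in the authors' deposited table. Other genes listed as paternally expressed had 7 of 13 above 0 (53.8%, median 0.06). Those listed as maternally expressed had 14 of 25 (56.0%, median 0.15), where 45.5% of all genes lay above 0. Their allelic expression in this fat was not examined. In clusters that hold a member, 14 of 22 others lay above 0 (median 0.22), and in clusters without a member 7 of 16 (median -0.10). With equal sums the latter median was 0.06, beside 0.12 over all genes. Among the 16, Meg3, a maternally expressed non-coding RNA, had 269 under arsenite and 249.7 under water. Snrpn, a splicing protein gene also among them, had 192 under arsenite and 217 under water. The split depends on the 1 Mb rule. Snrpn is the nearest measured gene on 1 side of the member Ndn, at 1898 kb. The rule thus put it in a cluster without a member, with 1 of 4 genes above 0 and 3 below. Dlk1, an imprinted inhibitor of adipogenesis, is not analysed here.

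Flanking genes taken without regard to imprinting were mixed too, but several of them, such as Copg2, Blcap and Peg10, are imprinted genes counted above. Of the nearest measured gene on each side of each member, 20 genes in all, 13 lay above 0 and 7 below. Their median log2 ratio was 0.13, and 45.5% of all genes lay above 0. Around Plagl1, which has no other measured imprinted gene in its cluster, Sf3b5, a splicing factor gene, had 233 under arsenite and 248 under water, and Ltv1, a ribosome assembly gene, had 306 under arsenite and 304 under water. The genes beside Grb10, Ikzf1 and Cobl, had 71.1 and 45.3 under arsenite, and 72.7 and 54.5 under water.

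Of 25 measured IGF and insulin signalling genes, 14 lay above 0 and 11 below, the median log2 ratio was 0.07, and 0 were called in the authors' deposited table. Igf2, the ligand that Igf2r clears, had the largest difference of the list, with the 42.7 under arsenite and 74.9 under water given above, a log2 ratio that the authors' deposited table lists as -0.80. The ligand Igf1 had 1645 under arsenite and 1649 under water. The receptors that Grb10 dampens, Insr and Igf1r, had 1538 and 146 under arsenite, and 1483 and 134 under water. Grb14, the relative of Grb10, had 323 under arsenite and 301 under water. Igfbp3, an IGF carrier, had 399 under arsenite and 257 under water, 1.55-fold, and Irs1, a docking protein of these receptors, had 525 under arsenite and 410 under water. The signal protein Gab1 had 186 under arsenite and 151 under water.

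Other inhibitors of the Cdkn1c kind did not share its ratio. Cdkn1a, of the same inhibitor family, had 607 under arsenite and 899 under water, and Cdkn1b had 299 under arsenite and 251 under water. Of 13 measured CDK inhibitors and G1 cyclins 6 lay above 0 and 7 below (median -0.01, 0 called), and the median was above 0 under each other scaling tried. Cdkn2b, of the other inhibitor family, had 56.2 under arsenite and 75.9 under water, Cdk2 157 under arsenite and 123 under water.

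Sgce lay above most genes of its complex. The complex anchors the cell membrane to the matrix in muscle and other cells. Of 10 measured sarcoglycan and dystrophin complex genes, 8 lay below 0 and 2 above (median -0.10, 0 called), beside a median of -0.03 over all genes. With the sums of both means made equal, 2 lay below 0 and 8 above (median 0.06). Under that setting the median over all genes was 0.12, and 66.2% of all genes lay above 0. Sgcd, delta-sarcoglycan, had 242 under arsenite and 297 under water. Utrn and Sspn were those above 0 as deposited, Utrn with 1820 under arsenite and 1325 under water.

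For Impact, 8 genes of the GCN2 branch were split 4 and 4 around 0 (median 0.02, 0 called). Eif2s1, the initiation factor subunit that GCN2 phosphorylates, had 606 under arsenite and 776 under water, and the authors' deposited table gives it a PPEE of 0.277. Gcn1l1, the GCN2 activator that IMPACT competes for, had 352 under arsenite and 313 under water. The 5 measured relatives of Plagl1 and Ndn all lay above 0 (median 0.23, 0 called), among them Maged1, with 1097 under arsenite and 941 under water.

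Genes listed under imprint maintenance were measured at a wide range of levels. Of 12, 8 lay above 0 and 4 below (median 0.12, 0 called). Trim28, the corepressor recruited by ZFP57, had 365 under arsenite and 313 under water, and Dnmt1, the maintenance DNA methyltransferase, had 109 under arsenite and 82.2 under water. Zfp57 itself was near the low end of the table, with 14.8 under arsenite and 8.84 under water. Eed, a Polycomb subunit, had 263 under arsenite and 325 under water.

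Genes described together with Mest in expanding fat lay mostly on its side. Of 9 measured, 8 lay above 0 and 1 below (median 0.41, 0 called), against 45.5% of all genes above 0; the list was drawn up with earlier results of these data known. Sfrp5, a secreted Wnt antagonist, had 497 under arsenite and 85.2 under water, 5.84-fold, which is above the ratio of Mest. Bmp3, a secreted growth factor gene, had 179 under arsenite and 72.3 under water, 2.48-fold. The caveolar coat genes Ptrf and Prkcdbp had 6713 and 753 under arsenite, and 3988 and 457 under water. Cav1, the caveolin of adipocytes and endothelium, was the 1 below 0, with 17397 under arsenite and 17485 under water. With upper-quartile scaling, quantile normalization, equal sums or the length trend removed, 9 of 9 lay above 0. Of all genes, 53.5%, 49.8%, 66.2% and 49.6% lay above 0 under those settings, in that order. Only Cav1 had to cross 0, and upper-quartile scaling and equal sums move ratios up, so nothing is read from the 9. The median was 0.63 under quantile normalization.

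Cell type markers differed between the groups too, and their part in the members' values was not tested. All 8 beige and brown adipocyte markers lay below 0, with summed means of 22623 under arsenite and 55955 under water. Endothelial markers had 9 of 10 above 0 and summed means of 5268 under arsenite and 3145 under water. Preadipocyte and fibroblast markers had 9 of 13 above 0, with summed means of 21845 under arsenite and 19444 under water, and 8 of the 9 skeletal muscle markers lay below 0.

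Nerve and immune markers differed less or were scarce. The 7 Schwann cell and nerve markers had summed means of 2032 under arsenite and 2147 under water, with 3 above 0, and the 8 macrophage markers had 2155 under arsenite and 2328 under water, with 4 above 0. The medians of both lists, -0.02 and -0.01, were above 0 under each other scaling tried. Of 9 lymphocyte and lymph node markers, 4 were measured, with summed means of 94.9 under arsenite and 194 under water, and the lymphatic chemokine gene Ccl21a was listed at 0 under arsenite. That gene was the 1 called marker in the authors' deposited table. The adipocyte markers had 8 of 12 above 0 and a median log2 ratio of 0.24.

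**Figure D4:**
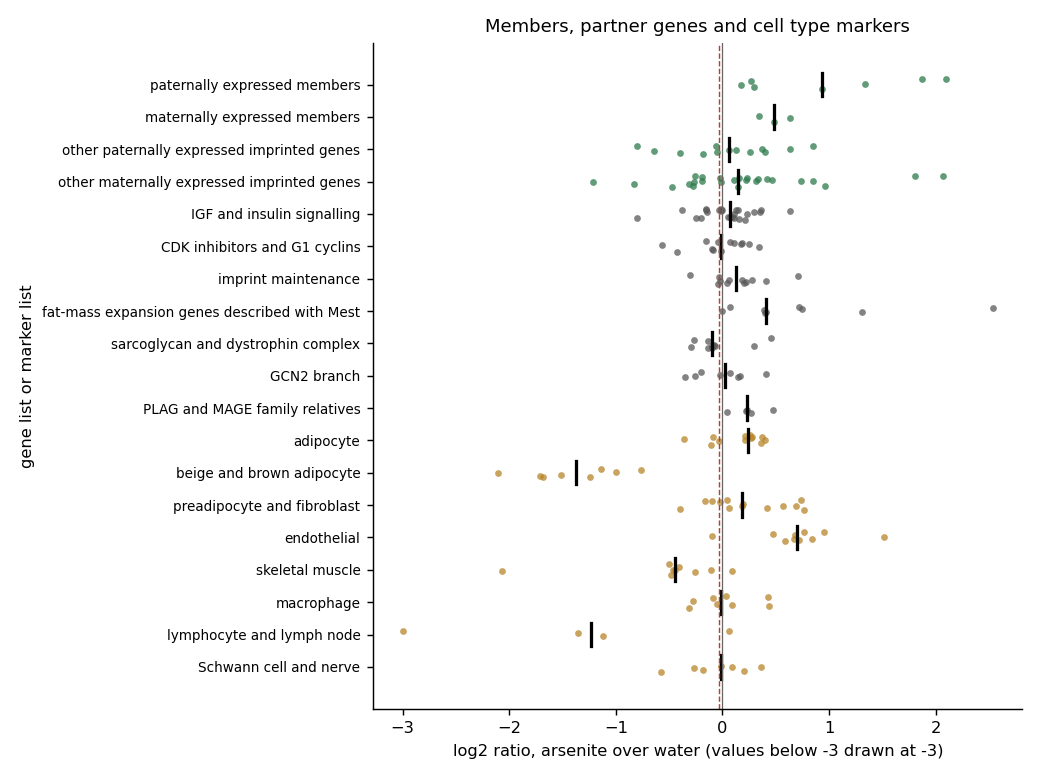
Log2 ratio of arsenite over water for every measured gene of each list, imprinted genes in green, partner genes in grey and cell type markers in ochre. Black bars are list medians and the dashed line is the median of all genes, -0.03; the beige markers lie wholly to the left and the endothelial markers mostly to the right.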

How the data were processed

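Inguinal fat of 3 arsenite-treated and 3 water-treated mice was profiled by RNA sequencing. Per the labels' protocols, reads were aligned to GRCm38. Bowtie2, HISAT and RSEM are listed by the submitters' processing notes, with neither version nor role. Per the file headers, the authors deposited a mean per group, which is a signal on a count-like scale whose scaling between libraries is not given in the sources used here. The authors also deposited a log2 ratio, which was matched by adding 0.574 to both means before dividing (largest gap 3.62e-08). The authors also deposited PPEE, a score between 0 and 1 that bears the name EBSeq gives to a posterior probability and is no p-value. The control column was taken as water and the treatment column as arsenite.

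With group means alone, no SD, test across mice or left-out replicate was possible. The members and the gene lists were chosen with earlier results of these data known. Named were all 10 members, the nearest measured gene on each side of each (predicted genes skipped), up to 4 members of each list with the lowest PPEE or those called, and the 4 genes nearest to Mest in ratio. H19, Meg3, Asb4 and Tfpi2 of the clusters were named for their role or position after their values were seen. Igf1, Insr, Igf1r, Grb14, Gcn1l1, Trim28, Zfp57, Prkcdbp and Cav1 were named for their role, also after their values were seen.

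Gene positions came from RefSeq GRCm38.p6, which matched 13463 of 13490 identifiers, and overlaps and 50-base stretches from GENCODE M21. Alternatives were 3 scalings of the means, 0.1 in place of the added constant, members with a mean of at least 50, removal of the trend on gene length (lowess, span 0.3) and PPEE bounds of 0.01 and 0.1. The scaling and trend steps were tested on simulated data. Python 3.11.15, numpy 2.4.6, pandas 2.3.3, statsmodels 0.14.6 and matplotlib 3.10.9 were used.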

Additional observations from a re-analysis of the deposited data

How the results depend on the processing

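All 10 members kept ratios above 0 under quantile normalization and removal of the length trend. They also did under upper-quartile scaling, equal sums and the added constant of 0.1, but could not have done otherwise. Those scalings moved ratios up, and the constant cannot change a sign. At PPEE bounds of 0.01 and 0.1, 0 members were called, against 0.467% and 0.882% of all genes, so nothing is read from the 0. A minimum mean of 50 left out no member (the lowest, Ndn, had 161 over both groups), so its 0 called was fixed in advance. The median over all genes was -0.03 as deposited, 0.03 with upper-quartile scaling and 0.12 with equal sums. With equal sums 66.2% of all genes lay above 0, as did 25 of the 38 other imprinted genes, 20 of the 25 IGF and insulin signalling genes and 11 of the 13 CDK inhibitors and G1 cyclins. The paternally expressed median, 0.94 as deposited, was 0.995 with upper-quartile scaling, 1.09 with equal sums and 0.90 without the length trend. The maternally expressed median, 0.48 as deposited, was 0.54, 0.64 and 0.45 under those settings and 0.51 under quantile normalization. The difference of the medians, 0.46 as deposited, was 0.43 under quantile normalization and 0.45 without the length trend. The minimum mean left every median as it was, since no member fell below it. No paired analysis was possible because the groups share no replicate numbers and values per mouse were not analysed here, and leaving out each replicate was not run for the latter reason. Depth limits low genes such as Klf14, Zim1 and Zfp57 most, and no interval can be given.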
